A study of Mus musculus with 6 samples.

Results

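The vacuolar-type H+-ATPase, the proteins of the lysosomal membrane and the TFEB family of transcription factors were examined in bulk RNA of RAW264.7, an established mouse macrophage-like cell line. The 38 genes were chosen by symbol from the 56636 genes of the deposited table: every gene whose symbol begins with Atp6v0, Atp6v1 or Atp6ap, together with Lamp1, Lamp2, Mcoln1, Scarb2, Cln3, Ostm1, Clcn7, Tfeb, Tfe3 and Mitf. They comprised 9 V0 subunit genes, 13 V1 subunit genes, 3 accessory subunit genes, 7 membrane protein genes, 3 TFEB family genes, 2 pseudogenes of Atp6v0c, and Atp6v1fnb, which is named as a neighbour of Atp6v1f and is no pump subunit. Both groups were wild-type (WT) cells: 3 libraries had been given vehicle for 24 h and 3 had been given the agent abbreviated 25-HC for 24 h, with no dose or full name stated in the labels. The study's title places the treatment within work on cholesterol homeostasis, and the comparison made here is 25-HC against vehicle. No label ties the libraries to separate cultures, so p-values measure library spread alone, and that spread may be technical.

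The V-ATPase acidifies lysosomes, endosomes and secretory vesicles by rotary catalysis. Its cytosolic V1 sector hydrolyses ATP through subunits A and B, and its membrane V0 sector carries protons through a ring of c subunits against subunit a. The lysosomal membrane further holds glycoproteins that line its inner face, ion channels and exchangers. TFEB, TFE3 and MITF are helix-loop-helix factors that bind the E-box CACGTG, and in particular its extended form in lysosomal promoters. They are held in the cytosol when mTORC1 is active on the lysosome, and macrophages rely on this compartment to degrade what they engulf.

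Values are TPM, a transcript level scaled for transcript length and library total, so depth is unknown and each library has the same total. The 3 vehicle libraries differed from each other far more than the 25-HC libraries did: 9492 genes reached 1 TPM in vehicle 2, against 11238 and 11994 in vehicle 1 and 3 and 11971 to 12005 in the 25-HC libraries. Of the macrophage markers, 7 of 8 passed the filter on low values given next (Mertk was listed at 0 in all 6 libraries), and the list summed to 1587 to 2344 TPM with vehicle and 2309 to 2323 TPM after 25-HC. Markers of melanocytes, fibroblasts, epithelial cells, lymphocytes and neutrophils summed to at most 2.57 TPM in any library.

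Averaged over all 6 libraries, 29 of the 38 genes reached 1 TPM and were tested, and each of these 29 also had a mean above 1 TPM within each group (the lowest was Mitf in vehicle, at 1.41 TPM). Of the other 9, Atp6v0a4, Atp6v1g3, Atp6ap1l and Atp6v1fnb were listed at 0 in all 6 libraries. Atp6v1b1, Atp6v1c2, Atp6v1e2 and the pseudogene Atp6v0c-ps1 never exceeded 0.18 TPM. Atp6v1g2 ranged from 0.33 to 1.14 TPM. The V0 and V1 isoforms among these 9 are known mainly from kidney, testis, epididymis or neurons, and each V1 subunit thus rested on 1 tested gene.

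No tested gene of the 29 passed the test of 25-HC against vehicle (limma on log2(TPM + 1), Benjamini-Hochberg over 12092 genes, threshold 0.05; smallest adjusted p = 0.389), and 5 had an unadjusted p under 0.05 (Atp6v0a1, Atp6v1c1, Atp6v1g1, Mcoln1 and Mitf), as did 1352 of all tested genes. Of all tested genes 0.00827% passed upward and 0% downward. By their values, 27 of the 29 had a higher mean log2 level in 25-HC and 2, Cln3 and Atp6v0e2, a lower one. For 20 of the 29 each 25-HC library lay above each vehicle library, against 22.6% of all tested genes. For none did each 25-HC library lie below, against 8.1% of all tested genes. The median log2 difference was 0.99 over the 29 and 0.52 over all tested genes. By group the medians were 0.53 for V0 (8 tested, 6 separated upward), 0.99 for V1 (8 tested, 5 separated), 1.47 for the accessory subunits (2 tested, 1 separated), 1.21 for the membrane proteins (7 tested, 6 separated) and 0.90 for the TFEB family (3 tested, 2 separated).

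**Figure D1:**
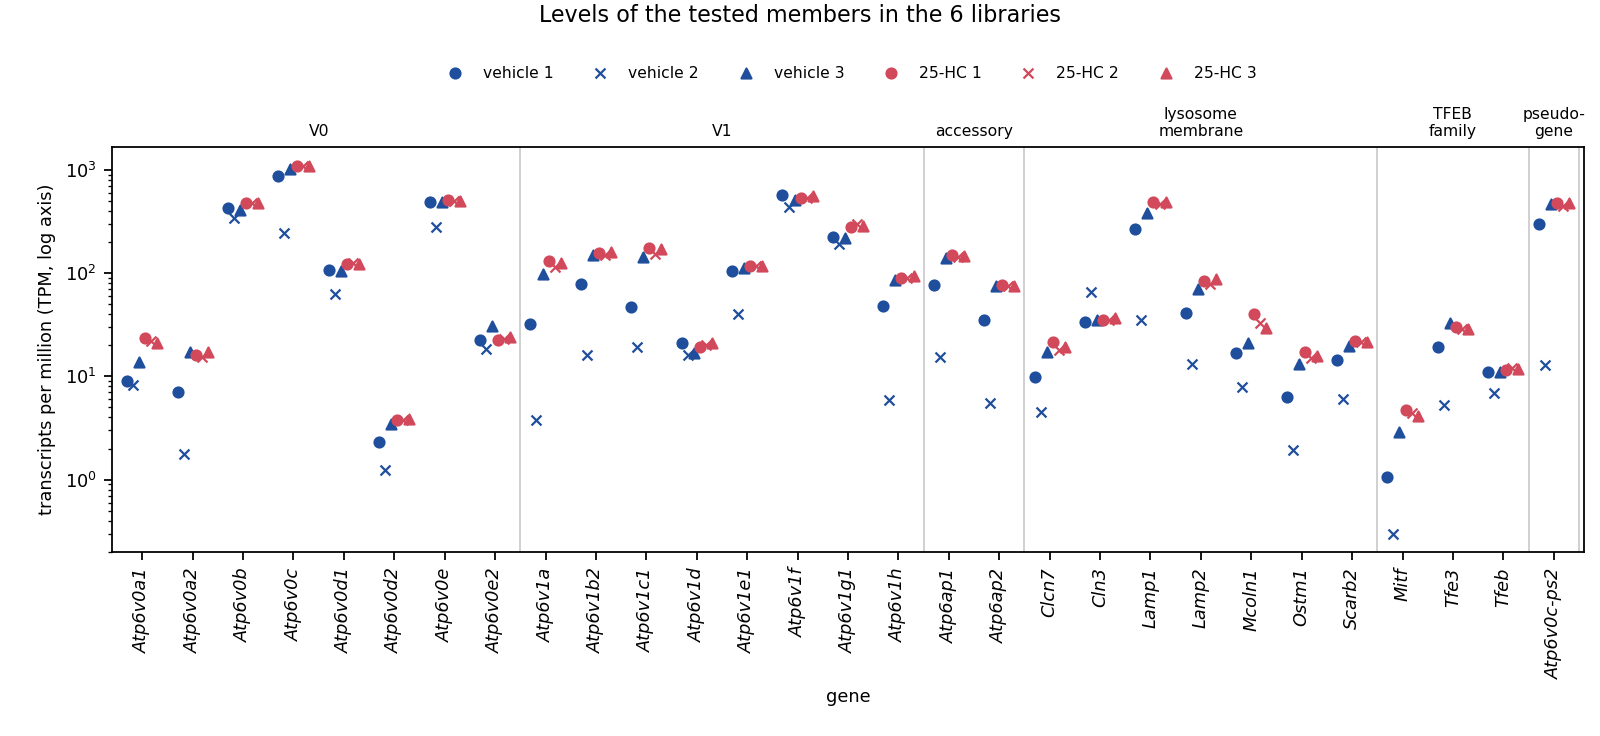
TPM (log axis) of the 29 tested genes in each of the 6 libraries, ordered by group, with vehicle in blue and 25-HC in red and 1 symbol per replicate number. Vehicle 2 (blue crosses) is the lowest library for 28 of the 29 genes, and Cln3 is the exception.

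The differences varied with the vehicle library compared. Vehicle 2 was the lowest of the 6 libraries for 28 of the 29 genes (73.9% of all tested genes). Against the treated mean, the 29 genes had a median log2 difference of -0.63 in vehicle 1, -1.98 in vehicle 2 and -0.11 in vehicle 3, where genes with a known length had -0.34, -1.29 and 0.07. Transcript length moved with the difference: across the 29 genes, Spearman's rho between the longest annotated transcript and the difference from 25-HC was -0.519 in vehicle 1, -0.252 in vehicle 2 and -0.0847 in vehicle 3, and across 11132 genes it was -0.444, -0.341 and -0.0302. These describe genes that share the same libraries. Without vehicle 2 the median difference of the 29 was 0.38, against 0.13 over all tested genes. The 15 genes with transcripts of 465 to 2889 bases had a median log2 difference between 25-HC and vehicle of 0.58, and the 14 genes with 2928 to 6328 bases had 1.14. After a trend with length was subtracted from each library these medians were 0.33 and 0.42. The subtraction also takes out each library's general level. Over all tested genes with a length, the median was 0.54 before it and 0.00262 after it.

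**Figure D2:**
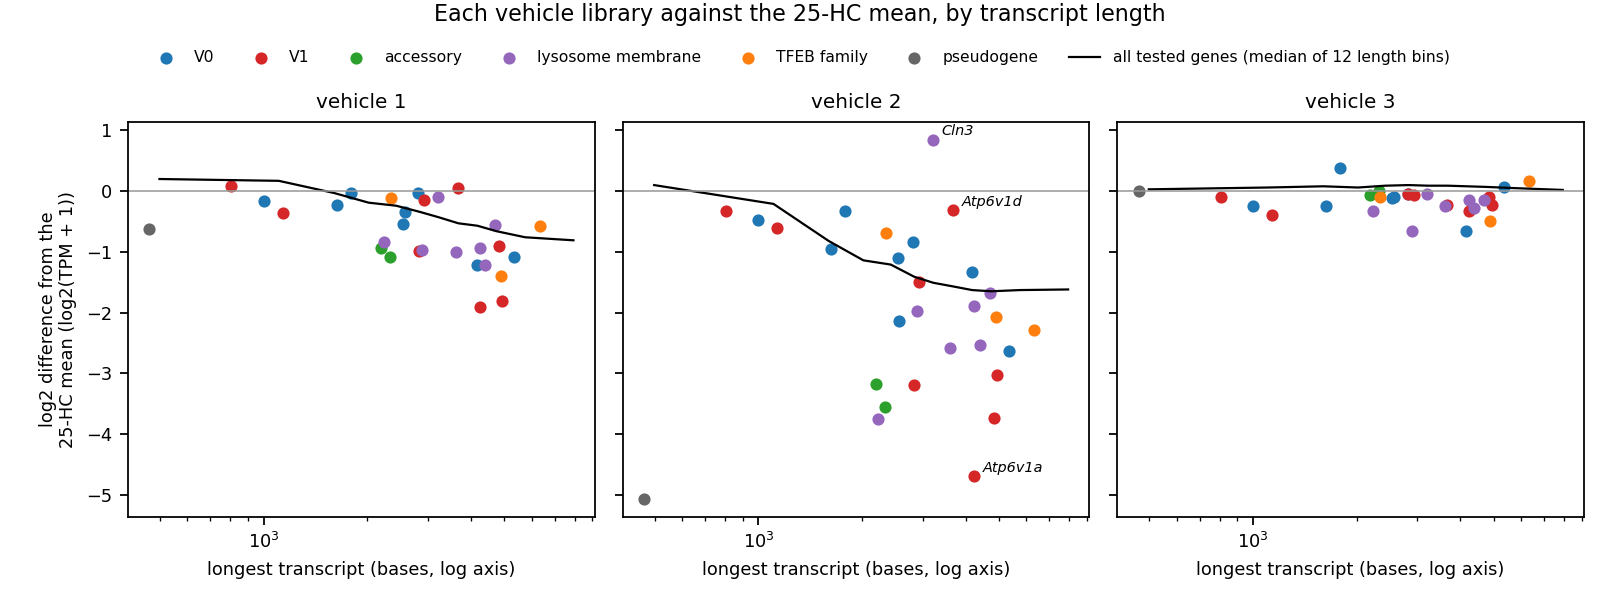
Log2 difference of each vehicle library from the 25-HC mean against the length of the longest transcript (log axis), for the 29 genes (points, coloured by group) and for all tested genes (black line, median of 12 length bins). The points scatter far below 0 in vehicle 2, where Atp6v1a is at -4.70 and Cln3 at 0.85, and stay near 0 in vehicle 3.

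Counts of separated genes were therefore also taken on 2 other scales. After median-ratio rescaling, which divides each library by 1 factor, 15 of the 29 separated upward and 1 downward (18.4% and 18.1% of all tested genes), with a median of 0.43 against 0.0133 over all genes. After the length correction 17 separated upward and 1 downward (17.1% and 18.7% of the 11132 genes with a length), with a median of 0.34 against 0.00262. The gene separated downward on both scales was Atp6v0e2. On all 3 scales 10 of the 29 separated upward, against 12.6% of genes: the V1 subunits Atp6v1a, Atp6v1c1 and Atp6v1h, the accessory subunit Atp6ap1, the membrane proteins Clcn7, Lamp1, Lamp2, Mcoln1 and Ostm1, and Mitf. Against vehicle 3 alone, 23 of the 29 were higher in each 25-HC library and 2 were lower in each (28.5% and 45.7% of all genes), and the median was 0.11 against -0.0706. That fit takes the lone vehicle library to vary like the treated ones. It called Atp6v0a1, Atp6v0b, Atp6v0d1, Atp6v1g1 and Lamp1 higher and Atp6v0e2 lower, where 4.52% and 6.33% of all genes were called. Without vehicle 3, limma called Atp6v0a1, Atp6v1c1 and Mitf higher (adjusted p = 0.0489, 0.0482 and 0.0482), where 5.55% of all genes were called higher.

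**Figure D3:**
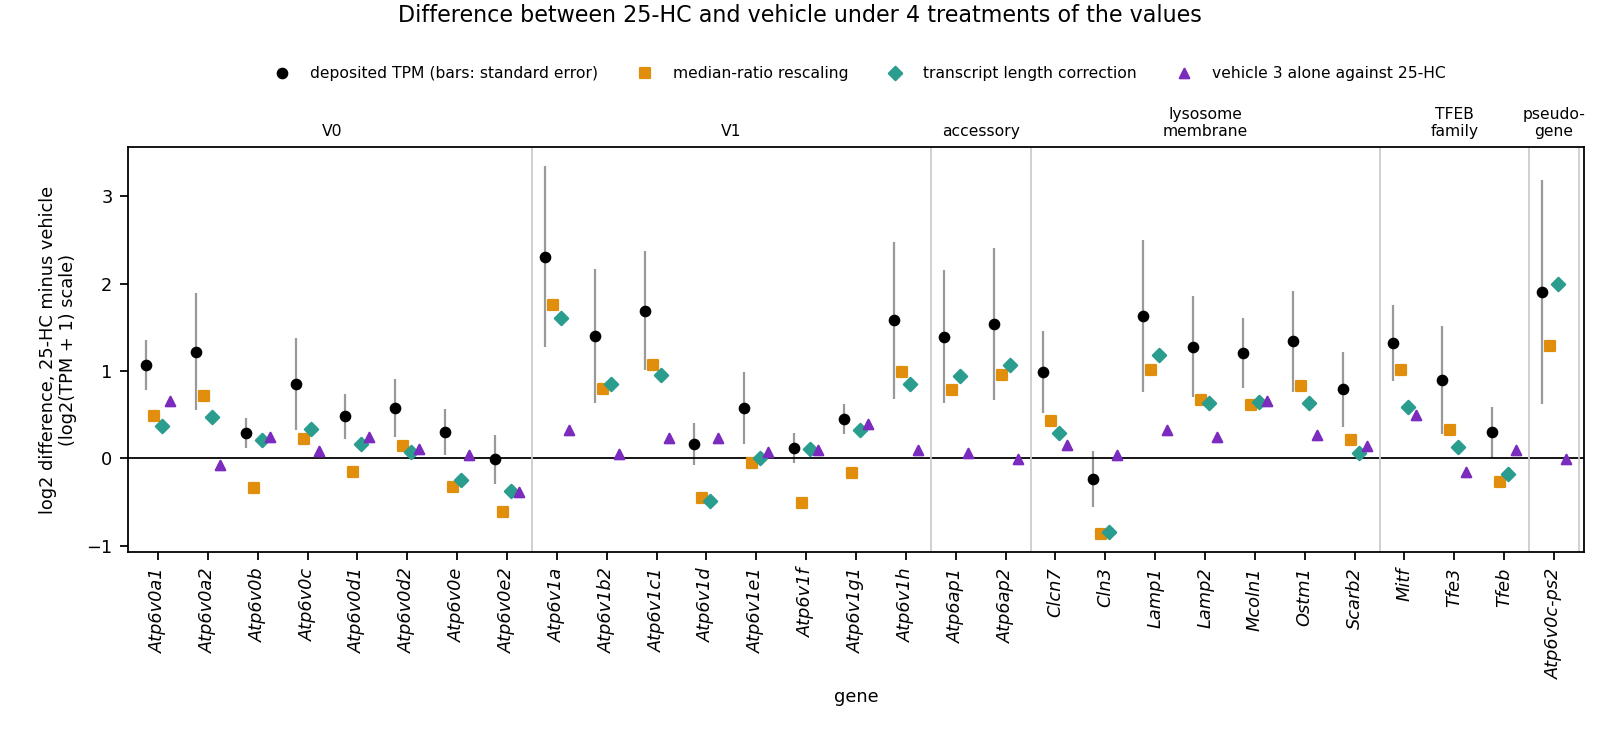
Log2 difference between 25-HC and vehicle for the 29 tested genes, from deposited TPM (black, with standard errors), after median-ratio rescaling (orange), after the length correction (green) and against vehicle 3 alone (purple). Atp6v1a has the largest difference on deposited TPM, 2.31, and is at 0.33 against vehicle 3 alone.

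Promoters of these genes were read for the letters that the TFEB family binds. RefSeq windows from 250 bases before to 50 bases after an annotated start (build GRCm38.p6, not the build of the deposited table) were matched by symbol for 29 of the 38 genes, in 39 windows, and both strands were searched for CACGTG and for the extended palindrome TCACGTGA, which contains it. CACGTG was found for 8 of the 29 matched genes and TCACGTGA for 6 of them, against 8.09% and 1.12% of the 27025 genes in the table and 7.15% and 0.974% of its 32851 windows. The 6 genes were Atp6v1a, Atp6v0d1, Atp6v0e, Mcoln1, Clcn7 and Cln3, and Lamp1 (4 copies) and Atp6v0b (2 copies) held the shorter form alone. Matches are letters in a window, not shown sites of binding. Printed here, 5′ to 3′ on the strand of the gene with CACGTG and TCACGTGA in capitals, are the windows of the pump subunit with the largest difference, of a V0 subunit with a small difference, of the lysosomal calcium channel and of the membrane gene that was highest in vehicle 2. They lie at chr16:44139210-44139509 on the minus strand, chr17:26676146-26676445 on the plus strand, chr8:3500269-3500568 on the plus strand and chr7:126583187-126583486 on the minus strand.
Atp6v1a: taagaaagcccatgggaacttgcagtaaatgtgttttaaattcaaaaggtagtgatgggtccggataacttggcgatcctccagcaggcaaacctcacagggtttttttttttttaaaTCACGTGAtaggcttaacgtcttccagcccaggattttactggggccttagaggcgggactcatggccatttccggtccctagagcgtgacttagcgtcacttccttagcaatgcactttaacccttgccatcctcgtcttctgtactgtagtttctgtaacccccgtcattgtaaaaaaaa
Atp6v0e: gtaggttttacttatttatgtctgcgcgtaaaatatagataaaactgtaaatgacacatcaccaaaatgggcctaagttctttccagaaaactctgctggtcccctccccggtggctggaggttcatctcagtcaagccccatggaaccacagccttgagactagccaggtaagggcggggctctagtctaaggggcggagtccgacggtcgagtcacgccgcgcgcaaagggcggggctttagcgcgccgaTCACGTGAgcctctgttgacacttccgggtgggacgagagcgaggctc
Mcoln1: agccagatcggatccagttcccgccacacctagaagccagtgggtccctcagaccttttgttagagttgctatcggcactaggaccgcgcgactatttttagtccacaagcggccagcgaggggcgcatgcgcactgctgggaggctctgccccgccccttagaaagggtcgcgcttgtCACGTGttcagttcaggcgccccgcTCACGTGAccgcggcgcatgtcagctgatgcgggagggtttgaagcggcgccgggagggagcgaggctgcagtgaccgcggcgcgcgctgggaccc
Cln3: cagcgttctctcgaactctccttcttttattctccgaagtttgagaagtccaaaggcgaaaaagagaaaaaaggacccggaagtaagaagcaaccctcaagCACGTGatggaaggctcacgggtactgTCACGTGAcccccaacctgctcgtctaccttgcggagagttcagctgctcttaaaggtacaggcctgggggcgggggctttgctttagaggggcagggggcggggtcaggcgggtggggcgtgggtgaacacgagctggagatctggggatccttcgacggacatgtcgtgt

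Counted from the annotated start, with negative positions upstream, the core began at -131 in Atp6v1a, at 3 in Atp6v0e, at -71 and -45 in Mcoln1 and at -149 and -121 in Cln3, which has a further start without the motif. The 6 with TCACGTGA had log2 differences between -0.24 (Cln3) and 2.31 (Atp6v1a) with a median of 0.74, and 5 of them separated upward. The 14 tested genes with a window and without CACGTG had a median of 0.88, and 9 separated upward. Over all tested genes 22.6% separated upward and the median was 0.52. Medians on the median-ratio scale were 0.14 and 0.27.

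Among V0 subunits the proteolipid ring dominated. Atp6v0c, which encodes the c subunit that forms most of the ring, was at 865, 247 and 1026 TPM (vehicle 1, 2 and 3, the order kept throughout) and reached 1099, 1089 and 1086 TPM after 25-HC. Its groups did not overlap, with vehicle 3 close below the treated libraries and vehicle 2 far below (log2 difference 0.85, SE 0.53, adjusted p = 0.395 by limma). The processed pseudogene Atp6v0c-ps2 is identical to a transcript of Atp6v0c in 464 of its 465 bases, so its reads can hardly be told from reads of the same stretch of Atp6v0c. The levels of both are uncertain. The pseudogene's listed 301, 12.9 and 469.9 TPM with vehicle and 477, 451 and 473 TPM after 25-HC had overlapping groups. Summed over both, the level was 1166, 259.9 and 1496 TPM with vehicle and 1576, 1539.6 and 1559.6 TPM after 25-HC, so that vehicle 2 stayed the lowest library and every treated library was above every vehicle library.

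Atp6v0b, the other proteolipid of the ring, was at 426, 343 and 405 TPM with vehicle and 473, 479 and 479 TPM after 25-HC, a narrow separation of 1.22-fold between means. Atp6v0e, a small membrane subunit, was at 489, 282 and 487 TPM with vehicle and 511, 494 and 496 TPM after 25-HC, with 2 vehicle libraries just under the treated ones. Both had a negative log2 difference after median-ratio rescaling, -0.34 and -0.33. Atp6v0e2, the second gene for subunit e, was at 22.7, 18.3 and 30.7 TPM with vehicle and 22.6, 23.2 and 24.1 TPM after 25-HC. Its groups overlapped on deposited values and separated downward on the 2 other scales (log2 difference -0.61 and -0.37).

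Atp6v0d1, the ubiquitous d subunit that couples the ring to the central stalk, was at 106, 63.1 and 105 TPM with vehicle and 123, 126 and 123 TPM after 25-HC. Its paralogue Atp6v0d2, known from osteoclasts, was far lower, at 2.32, 1.24 and 3.45 TPM with vehicle and 3.76, 3.79 and 3.89 TPM after 25-HC. Both separated upward on deposited values, and Atp6v0d1 had a log2 difference of -0.15 after rescaling. Markers of osteoclasts, which RAW264.7 cells can form, summed to 77.2, 43.0 and 101 TPM in vehicle 1, 2 and 3 and 75.9 to 79.0 TPM in 25-HC. Of the 8, 5 were tested, Calcr was listed at 0 throughout and Itgb3 was at 0.03 TPM or less. The part of osteoclast-like cells in these levels was not tested, and in bulk RNA fewer cells of a type cannot be told apart from less RNA per cell.

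Subunit a holds the paths by which protons enter and leave the ring and, through its isoforms, steers the pump to different membranes. The first isoform, Atp6v0a1, was at 8.98, 8.24 and 13.8 TPM with vehicle and 23.6, 22.2 and 21 TPM after 25-HC (10.3 ± 2.99 and 22.3 ± 1.29 TPM, SD, n = 3 each). Every treated library was above every vehicle library, and the treated mean was 1.62-fold the level of vehicle 3, the highest of the vehicle libraries (log2 difference 1.07, SE 0.29, adjusted p = 0.389 by limma). Its groups overlapped after median-ratio rescaling and after the length correction, with differences of 0.48 and 0.37. Atp6v0a2, known from the Golgi, was at 7.08, 1.77 and 17.1 TPM with vehicle and 16.1, 15.3 and 17.1 TPM after 25-HC, so that vehicle 3 was level with the highest treated library.

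The third isoform is Tcirg1, the a3 subunit of lysosomes and of the osteoclast ruffled border, whose symbol falls outside the naming rule. It was the most abundant a isoform, at 218, 288 and 206 TPM with vehicle and 208, 213 and 204 TPM after 25-HC, with overlapping groups and its highest value in vehicle 2 (log2 difference -0.17, adjusted p = 0.555 by limma). As shares of all a subunit transcripts, Tcirg1 held 93.1%, 96.6% and 87.0% in vehicle and 83.9%, 85.0% and 84.2% in 25-HC, below each vehicle library. Atp6v0a1 held 3.83%, 2.77% and 5.80% in vehicle and 9.54%, 8.84% and 8.70% in 25-HC, above each vehicle library. The means were 92.3 ± 4.89% and 84.4 ± 0.576% for Tcirg1 and 4.13 ± 1.54% and 9.03 ± 0.45% for Atp6v0a1 (SD, 3 libraries each). Both gave p = 0.1 in the exact two-sided permutation test, the smallest that 3 against 3 libraries allow, and 0.25 after adjustment over the 5 shares tested. The shares of Atp6v0a2 (exact p = 0.4), Atp6v0d2 within subunit d (exact p = 0.4) and Atp6v0e2 within subunit e (exact p = 0.3) did not reach it. A share is free of the library total, but its parts differ in transcript length, whose role was not tested for shares. Shares of subunit a are parts of the same total, so the results for Tcirg1 and Atp6v0a1 are not independent.

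**Figure D4:**
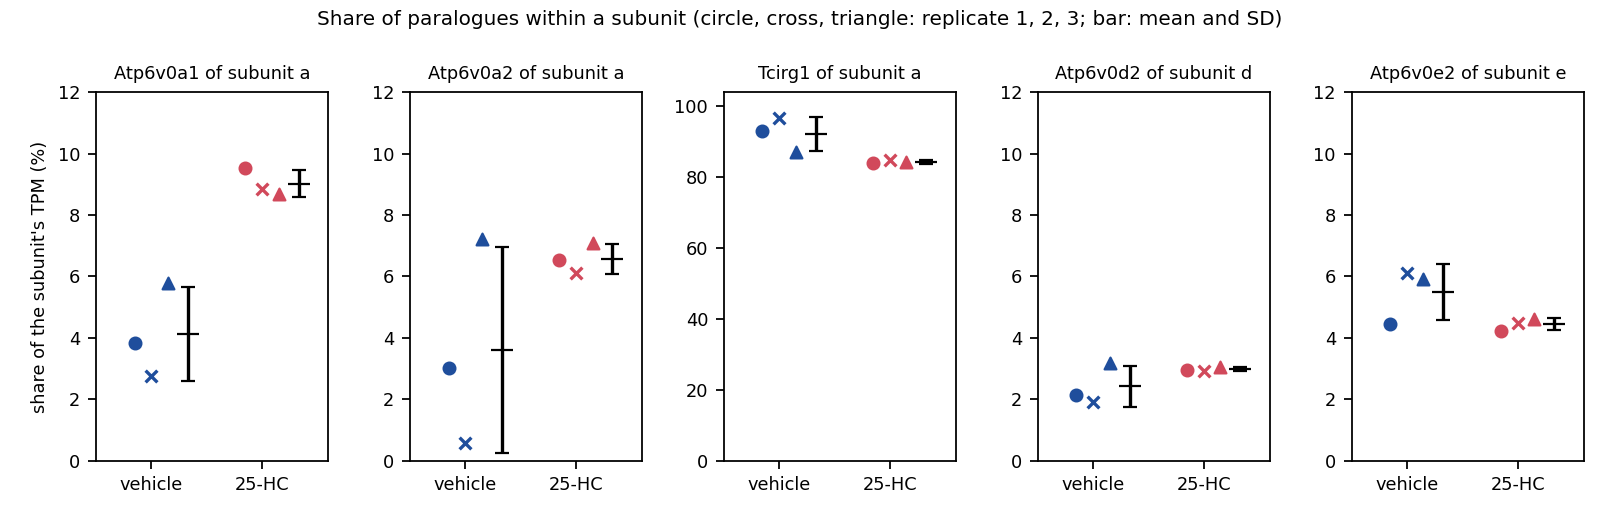
Share of a subunit's summed TPM (%) taken by 1 paralogue, for the 5 shares tested, with each library as a point (vehicle blue, 25-HC red) and the mean and SD beside them; the axis for Tcirg1 is wider. The Atp6v0a1 share is 2.77% to 5.80% in vehicle and 8.70% to 9.54% in 25-HC.

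The V1 genes ranged from nearly even across libraries to far lower in vehicle 1 and 2. Subunit A, the catalytic ATPase encoded by Atp6v1a, was at 31.9, 3.78 and 97.8 TPM with vehicle and 130.2, 115 and 125 TPM after 25-HC. No other tested V-ATPase subunit gene had a larger difference (log2 difference 2.31, SE 1.04, adjusted p = 0.389 by limma), and the treated mean was 1.26-fold vehicle 3. Atp6v1b2, the B subunit outside kidney, was at 78.5, 16.2 and 151 TPM with vehicle and 158, 150.0 and 159 TPM after 25-HC, with vehicle 3 inside the treated range. Atp6v1c1, which together with subunit H regulates assembly of the 2 sectors, was at 46.6, 19.4 and 142 TPM with vehicle and 174, 153 and 171 TPM after 25-HC, and its groups did not overlap (log2 difference 1.69, SE 0.68). Atp6v1h, the H subunit, was at 48.4, 5.90 and 85.1 TPM with vehicle and 89.5, 90.6 and 93.5 TPM after 25-HC, again with vehicle 3 just below the treated libraries.

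The small stalk subunits of V1 varied less. Atp6v1f was at 574, 432 and 506 TPM with vehicle and 537, 535 and 559 TPM after 25-HC, and the groups overlapped. Atp6v1g1 of the peripheral stalk was at 225, 189.6 and 221 TPM with vehicle and 282, 302 and 285 TPM after 25-HC (212 ± 19.3 and 289.8 ± 10.9 TPM, SD, n = 3 each). Its groups were apart by more than either spread (log2 difference 0.45, SE 0.17, adjusted p = 0.389 by limma), yet the difference was -0.17 after median-ratio rescaling. Atp6v1e1, also of the peripheral stalk, was at 105, 40.5 and 111 TPM with vehicle and 116, 118 and 116 TPM after 25-HC. Atp6v1d, the central stalk, was at 21, 16 and 17 TPM with vehicle and 19.3, 20 and 21 TPM after 25-HC, with overlap.

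Levels per transcript length thus spanned a wide range within 1 enzyme. Among the chief genes of each sector's subunits with Atp6 symbols, the means in the 25-HC libraries ran from 1091 ± 6.66 TPM for Atp6v0c through 544 ± 13.5 TPM for Atp6v1f, 500.2 ± 9.20 TPM for Atp6v0e, 477 ± 3.84 TPM for Atp6v0b and 289.8 ± 10.9 TPM for Atp6v1g1 (SD, n = 3 each). Next came Atp6v1c1 (166 ± 11.8 TPM) and Atp6v1b2 (156 ± 4.84 TPM), whose means differed by less than the SD of Atp6v1c1 and by more than that of Atp6v1b2. Atp6v0d1 (124 ± 1.58 TPM) and Atp6v1a (123 ± 7.74 TPM) were within each other's spread. Atp6v1e1 (117 ± 1.30 TPM) and Atp6v1h (91.2 ± 2.07 TPM) followed. The subunits with other symbols, Tcirg1 (208 ± 4.92 TPM) and Rnasek (141 ± 5.49 TPM), lay between Atp6v1g1 and Atp6v1c1 and between Atp6v1b2 and Atp6v0d1. Atp6v1d, at 20.1 ± 0.882 TPM, was the lowest V1 subunit gene tested, far below the next. In vehicle 2 the order differed, with Atp6v1f at 432 TPM above Atp6v0c at 247 TPM and Atp6v1a at 3.78 TPM below Atp6v1d at 16 TPM.

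Both tested accessory subunits had the same order of vehicle libraries. Atp6ap1, a V0 accessory glycoprotein needed for assembly, was at 76.1, 15.5 and 141 TPM with vehicle and 151, 144 and 148 TPM after 25-HC. Atp6ap2, also known as the prorenin receptor, was at 35.1, 5.47 and 75.8 TPM with vehicle and 76.0, 74.8 and 75.2 TPM after 25-HC. Vehicle 3 was close to the treated libraries in both, the treated mean being 1.05-fold and 0.995-fold its level, while vehicle 1 and 2 were low. Their log2 differences were 1.39 (SE 0.76) and 1.54 (SE 0.87) on deposited TPM and 0.06 and -0.01 against vehicle 3 alone.

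Lysosome-associated membrane proteins were among the genes higher on each scale. Lamp1, a heavily glycosylated protein that lines the lysosomal membrane, was at 269.9, 34.9 and 384 TPM with vehicle and 489.8, 469 and 485 TPM after 25-HC. The treated mean was 1.25-fold vehicle 3, with no overlap (log2 difference 1.63, SE 0.87, adjusted p = 0.389 by limma). Lamp2, which also serves chaperone-mediated autophagy, was at 41.0, 13.1 and 69.8 TPM with vehicle and 83.8, 78.8 and 86.8 TPM after 25-HC, with a treated mean 1.19-fold the level of vehicle 3. Scarb2, the receptor that carries glucocerebrosidase to lysosomes, was at 14.4, 6.08 and 19.6 TPM with vehicle and 22.2, 21.4 and 21.5 TPM after 25-HC. It separated on deposited and rescaled values, and its difference was 0.06 after the length correction.

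Of the channels and exchangers, Mcoln1 stood farthest above vehicle 3. Mcoln1 encodes the lysosomal calcium channel whose release of calcium activates calcineurin, which dephosphorylates TFEB. It was at 16.8, 7.86 and 21.1 TPM with vehicle and 39.9, 33.1 and 29.7 TPM after 25-HC (15.3 ± 6.77 and 34.2 ± 5.21 TPM, SD, n = 3 each). All treated libraries were above all vehicle libraries on each of the 3 scales, and the treated mean was 1.62-fold vehicle 3, a ratio shared with Atp6v0a1 (log2 difference 1.21, SE 0.40, adjusted p = 0.389 by limma; 0.61, 0.64 and 0.66 after rescaling, after length correction and against vehicle 3).

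Clcn7, the chloride-proton exchanger of lysosomes, was at 9.75, 4.48 and 17.4 TPM with vehicle and 21.4, 17.9 and 19.1 TPM after 25-HC. Ostm1, its obligate partner subunit, was at 6.30, 1.92 and 13.1 TPM with vehicle and 17.3, 15.1 and 15.6 TPM after 25-HC. In both, vehicle 2 was lowest and vehicle 3 highest among the vehicle libraries, none of which reached the treated ones, and the treated means were 1.12-fold and 1.22-fold vehicle 3.

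Cln3, the membrane protein mutated in juvenile Batten disease, ran the other way. It was at 33.7, 65.4 and 34.8 TPM with vehicle and 35.5, 35.2 and 37 TPM after 25-HC. Vehicle 2 was its highest library, and the other 5 lay between 33.7 and 37 TPM (log2 difference -0.24, SE 0.32, adjusted p = 0.602 by limma; 0.07 without vehicle 2). Exons of Cln3 share 442 bases with Apobr, a gene on the opposite strand, in GENCODE M21. The sources used here do not say whether counting used strand, so reads of this stretch may come from either gene. Apobr was at 32.0, 11.6 and 37.3 TPM with vehicle and 23.5 to 26.6 TPM after 25-HC, lowest where Cln3 was highest. Exon overlaps with opposite-strand genes also exist for Lamp1, Ostm1, Atp6v0a2, Atp6v0b, Atp6v1e1 and Atp6v1h, and none of those partners exceeded 4.10 TPM.

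Within the TFEB family the 3 genes differed in level and in difference. Tfe3 was the most abundant, at 19.2, 5.23 and 32.8 TPM with vehicle and 29.8, 28.9 and 29.0 TPM after 25-HC, so that each treated library was below vehicle 3 and above vehicle 1 and 2. Tfeb was at 10.9, 6.95 and 11 TPM with vehicle and 11.6, 12.1 and 11.9 TPM after 25-HC. Its narrow separation (log2 difference 0.30, SE 0.29, adjusted p = 0.484 by limma) was found neither after median-ratio rescaling (-0.27) nor after length correction (-0.18). Mitf, the family member of osteoclasts, melanocytes and mast cells, was at 1.07, 0.30 and 2.87 TPM with vehicle and 4.75, 4.46 and 4.17 TPM after 25-HC. Its treated values were apart from vehicle on each scale and 1.55-fold vehicle 3 by the mean, at levels where the log2(TPM + 1) scale understates change (log2 difference 1.32, SE 0.43, adjusted p = 0.389 by limma). Melanocyte markers (Dct, Tyr, Pmel and Mlana) summed to 1.05 TPM or less in each library and Mlana was listed at 0.

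Around the pump and its regulators, no listed gene passed the limma test over all 6 libraries in either direction. Among the genes outside the members that are described below, Fnip2 and Wdr7 passed upward without vehicle 3 (adjusted p = 0.0433 and 0.0447 by limma). In that fit 5.55% of all tested genes were called higher, and the rest of the listed genes were not examined in it. Against vehicle 3 alone, the log2 differences of Fnip2 and Wdr7 were 0.57 and 0.38. Of 10 genes for V-ATPase assembly and regulation, 8 were tested, 2 separated upward and none downward, where 22.6% and 8.1% of all tested genes did. The median log2 difference was 0.56, near the 0.52 of all tested genes. After median-ratio rescaling it was 0.03, with 2 separated upward and 1 downward (18.4% and 18.1% of all tested genes). Against vehicle 3 alone, 3 were higher in each 25-HC library and 4 were lower in each (28.5% and 45.7% of all tested genes). Wdr7, part of the complex that reassembles the pump, was at 0.91, 0.30 and 3.62 TPM with vehicle and 5.47, 4.32 and 5.27 TPM after 25-HC. Oxr1, whose conserved domain binds the V1 sector, was at 4, 0.70 and 6.74 TPM with vehicle and 7.79, 8.46 and 7.73 TPM after 25-HC. Rnasek, a small subunit found with V0, was lower in each 25-HC library, at 207, 439 and 150.4 TPM with vehicle and 134, 145 and 143 TPM after 25-HC, with a log2 difference of -0.76 (adjusted p = 0.389 by limma). After median-ratio rescaling the difference was -1.39 with overlapping groups, after length correction it was -0.76, and against vehicle 3 alone it was -0.10.

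The next list held 19 genes for mTORC1, which when active holds TFEB in the cytosol, and for its regulators, including its inhibitors Tsc1 and Tsc2. Of these, 18 were tested, 7 separated upward and none downward (22.6% and 8.1% of all tested genes). The median was 0.75 against 0.52 over all genes. After median-ratio rescaling the median was 0.26, with 8 separated upward and 1, Rragd, downward (18.4% and 18.1% of all tested genes). Against vehicle 3 alone, 9 were higher in each 25-HC library and 4 were lower in each (28.5% and 45.7% of all tested genes). Fnip2, partner of folliculin in the GTPase-activating complex that lets mTORC1 phosphorylate TFEB, was at 5.31, 2.09 and 18.7 TPM with vehicle and 28.9, 26.4 and 29.4 TPM after 25-HC. The Rag GTPase Rragb was at 2.15, 0.17 and 5.32 TPM with vehicle and 7.35, 6.14 and 7.53 TPM after 25-HC. Rragd, another Rag GTPase and a known TFEB target, chosen after its values were seen, had its 2 lowest values in 25-HC libraries, at 22.9, 16 and 31.7 TPM with vehicle and 17.6, 8.08 and 2.26 TPM in treated libraries that were far apart (log2 difference -1.53, SE 0.66, adjusted p = 0.389 by limma; -2.09 after median-ratio rescaling). The last list held the calcineurin genes Ppp3ca, Ppp3cb and Ppp3r1, for the release of TFEB, and Tfec, a relative of TFEB. Tfec did not exceed 0.03 TPM and was not tested. Of the 3 tested, Ppp3ca alone separated upward and none downward (22.6% and 8.1% of all tested genes). After median-ratio rescaling Ppp3r1 alone separated upward and none downward (18.4% and 18.1%). Their median log2 difference was 1.34, against 0.52 over all tested genes. Against vehicle 3 alone these medians were 0.04 and -0.0706. Ppp3cb, a catalytic subunit of calcineurin, was at 13.5, 2.97 and 32.9 TPM with vehicle and 34.3, 30.7 and 31.1 TPM after 25-HC, and its regulatory subunit Ppp3r1 was at 17.3, 3.21 and 33 TPM with vehicle and 37, 31.6 and 33.7 TPM after 25-HC, each with vehicle 3 among the treated values.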

How the data were processed

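Libraries came from total RNA with a TruSeq kit, per the labels' protocols. The tools HISAT2, StringTie and RSEM and the build GRCm39 are named per the submitters' processing notes, while versions, annotation and strand setting were not found in these sources. The table the authors deposited holds TPM per gene and library; 11 empty columns were ignored.

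The 12092 genes averaging 1 TPM or more entered a limma 3.58.1 fit on log2(TPM + 1) (R 4.3.3; lmFit, eBayes with a trend, two-sided) over 6 libraries, Benjamini-Hochberg adjusted, threshold 0.05. Separation means that every 25-HC library lay above, or below, every vehicle library. Shares were compared by exact permutation. Each member found by symbol is described, as are Tcirg1 and, per pathway list, the 2 genes with the smallest p. Members, lists, tests and alternatives (in the closing section) were chosen with earlier results of these data known. Lengths are those of the longest transcript in GENCODE M21, matched by identifier for 92.1% of tested genes and all 38 members; the length correction subtracts a loess trend per library (span 0.75, degree 2). The fit was tested on simulated data with the same spread in each library, and the correction on a simulated trend without noise. Neither shows how they behave on vehicle libraries that differ as these do. Python 3.11.15, scipy 1.17.1 and biopython 1.88 were used.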

Additional observations from a re-analysis of the deposited data

How the results depend on the processing

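For the 29 tested members, 402 of 433 values under other settings kept direction and side of the threshold, 9 passed the threshold and 22, in 15 members, had the opposite sign. Median-ratio rescaling gave -0.34 for Atp6v0b, -0.15 for Atp6v0d1, -0.33 for Atp6v0e, -0.45 for Atp6v1d, -0.05 for Atp6v1e1, -0.51 for Atp6v1f, -0.17 for Atp6v1g1 and -0.27 for Tfeb. Quantile normalization gave -0.03 for Atp6v0d2, -0.33 for Atp6v1d and -0.30 for Tfeb. Length correction gave -0.25 for Atp6v0e, -0.49 for Atp6v1d and -0.18 for Tfeb. Against vehicle 3 alone the values were -0.07 for Atp6v0a2, -0.01 for Atp6ap2, 0.04 for Cln3, -0.16 for Tfe3, and -0.01 for Atp6v0c-ps2, and outside the members 0.01 for Tcirg1 and -0.04 for Ppp3cb. Leaving out 1 library gave -0.40 to 0.07 for Cln3 and -0.18 to 0.18 for Atp6v0e2. The causes were not tested.

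Members called by limma numbered 6 against vehicle 3 alone and 0 to 3 when 1 library was left out (3 without vehicle 3), and 0 in the other settings. Members separated downward numbered 1 after median-ratio rescaling, quantile normalization and length correction and 2 against vehicle 3 alone. In the order median-ratio rescaling, quantile normalization, length correction and vehicle 3 alone, the median was 0.00, 0.23, 0.19 and 0.10 for V0, 0.61, 0.68, 0.63 and 0.25 for the membrane proteins and 0.32, 0.33, 0.13 and 0.10 for the TFEB family. In the same order it was 0.37, 0.71, 0.59 and 0.16 for V1 (0.34 with no filter on low values) and 0.87, 1.04, 1.01 and 0.03 for the accessory subunits. Leaving out 1 library gave 0.22 to 0.71 for V0, 0.44 to 1.46 for V1, 0.52 to 2.19 for the accessory subunits, 0.58 to 1.48 for the membrane proteins and 0.21 to 1.43 for the TFEB family, the lowest each time without vehicle 2. Same-numbered deviations from the group means showed no clear correlation (-0.0128, 0.0555 and 0.0296). With vehicle libraries that differ this widely, these values cannot decide whether the replicate numbers pair the libraries. With the replicate block 0 members were called, 20 separated upward and the medians were 0.53, 0.99, 1.47, 1.21 and 0.90. TPM holds no depth, so precision from counting is unknown.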
